A study of Mus musculus with 14 samples.

Results

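LINE elements of families other than L1 (L2, CR1 and RTE) were examined in RNA from mouse testis. Every element of repeat class LINE whose family was not L1 was taken from the element tables of MVH IP and of round spermatids. This gave 4092 loci among 129578 listed repeat loci of all classes. Of these, 2735 of 94297 were listed for MVH IP and 1794 of 47338 for round spermatids, and 437 of the 12057 loci listed in both tables were members.

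The study sequenced RNA of 14 libraries in 9 groups from C57BL/6 mice at least 6 weeks old, collected along a purification of the chromatoid body, an RNA and protein granule beside the nucleus of round spermatids. MVH IP was RNA brought down from crosslinked testis material with an antibody to MVH, a helicase that marks germ cells and is the product of Ddx4, and its deposited value stands for 3 libraries. Round spermatids were sorted haploid germ cells, and their deposited value stands for 2 libraries, 1 of them made from RNA above 500 bp. Lysate, the starting material, and the supernatant, pellet1 and pellet2 made from it have 1 library each and were used here for the levels of transcripts, with the lysate element table used for listing. The 1 library of a control IP with IgG and the 3 of an IP against ACR, a protease of the acrosome, were not analysed here, so carry-over in MVH IP was not tested.

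LINEs are retrotransposons that copy themselves through an RNA. L1 is the family still active in the mouse, whereas L2, CR1 (with the repeats L3 and L3b) and RTE (with L4) ceased to move early in mammalian history. Their copies are short, diverged fragments that cannot make a working protein, and they are often read as part of longer transcripts around them. In male germ cells the piRNA pathway, much of which gathers in the chromatoid body, silences active transposons.

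L2 made up most of the loci in both tables. It had 2210 loci in MVH IP (80.8% of the members there), against 1467 in round spermatids (81.8%). CR1 had 388 loci in MVH IP and 236 in round spermatids. RTE had 137 in MVH IP and 91 in round spermatids. The make-up by family was thus close between the tables, with CR1 at 14.2% of the MVH IP members and 13.2% of the round spermatid members, and RTE at 5.01% and 5.07%. By repeat name, L2a led with 711 loci in MVH IP and 478 in round spermatids, followed by L2 (665 and 382), L2b (459 and 324), L2c (375 and 283), L3 (328 and 209) and L4 (130 and 87). The rare repeats were L3b (53 loci in MVH IP, 27 in round spermatids) and L5 (5 and 4). CR1_Mam, with 7 loci, and ALINE, with 2, were listed for MVH IP alone. LINE loci outside L1 made up 2.90% of all listed repeat loci of MVH IP and 3.79% of those of round spermatids. Their share of the summed FPKM was 4.03% in MVH IP, against 3.35% in round spermatids. FPKM, as the deposited tables name their values, is a number of sequenced fragments scaled for length and library size, and both tables list elements from 5 FPKM upward, so an element missing from one lay below that floor or was unlisted.

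The members listed for MVH IP had a median of 29.1 FPKM and those listed for round spermatids a median of 14.4 FPKM. All repeat elements had medians of 17.8 FPKM in MVH IP and 12.0 FPKM in round spermatids. Over all lengths the old LINEs of MVH IP stood above L1 (17.4 FPKM) and DNA transposons (20.1 FPKM), and beside MIR (29.4 FPKM), an equally old SINE. L1 elements were longer, with a median of 214 bp against 123 bp in MVH IP, and at equal length the order turned for short elements. Old LINEs of at most 50 bp had 206 FPKM in MVH IP against 1496 FPKM for L1, and those of 51 to 100 bp had 55.7 FPKM against 102 FPKM. In round spermatids the old LINEs of all lengths stood at 14.4 FPKM, against 16.2 FPKM for L1, 11.6 FPKM for DNA transposons and 12.5 FPKM for MIR. By family, the medians were 28.3 FPKM in MVH IP and 14.0 FPKM in round spermatids for L2, 34.1 FPKM and 16.3 FPKM for CR1, and 32.0 FPKM and 19.0 FPKM for RTE. These differences between families lay well inside the spread of loci within each family.

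**Figure D1:**
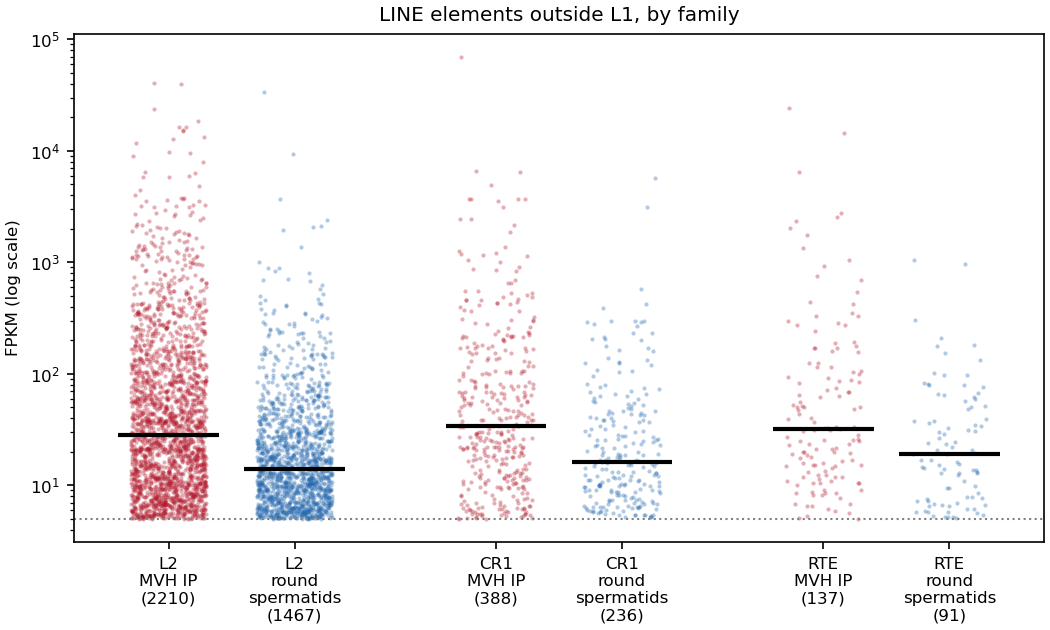
FPKM of each listed LINE element outside L1 (log scale) by family, with MVH IP left of round spermatids, the number of loci in brackets, the median as a black line and the listing floor of 5 FPKM dotted. In each family the median is higher in MVH IP, and single loci reach from the floor to above 1000 FPKM.

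A few loci carried much of the signal. In MVH IP, 139 of 2735 members reached 1000 FPKM, and the 10 highest held 32.4% of the members' summed FPKM. In round spermatids 12 of 1794 members reached 1000 FPKM, and the 10 highest held 47.7%. Of all repeat elements, 2730 of 94297 in MVH IP and 656 of 47338 in round spermatids reached 1000 FPKM. The members' share was thus above that of all elements in MVH IP and below it in round spermatids. For L1 the counts were 1034 of 18583 and 529 of 9177. For MIR, with 4033 loci in MVH IP and 2501 in round spermatids, the 10 highest held 25.2% in MVH IP and 32.2% in round spermatids. The lists of the 10 highest had 5 loci in common, and 9 loci of each were also listed in the other table.

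The highest member in MVH IP was an L3 of 76 bp at chr2:25071078-25071153 (mm9), at 69591 FPKM in MVH IP and 5759 FPKM in round spermatids. It lay 928 bp from 4933433C11Rik, a gene at 260 FPKM in the MVH IP gene table. An L2b of 99 bp at chr4:131320116-131320214 was at 40613 FPKM in MVH IP and 33686 FPKM in round spermatids, the highest member there. Its log2 ratio of FPKM + 1, MVH IP over round spermatids, was 0.27, and -2.16 relative to the median of all shared elements. Ptpru, the receptor tyrosine phosphatase gene 4.16 kb away, was not listed in the MVH IP gene table. An L2a of 270 bp at chr10:98111048-98111317 had 39383 FPKM in MVH IP and 9422 FPKM in round spermatids, and the nearest gene, Atp2b1, a plasma membrane calcium pump, was 266 kb away. Very high values thus occurred both close to a gene and far from any.

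The highest RTE element was an L4 of 38 bp at chr8:119737619-119737656, at 23993 FPKM in MVH IP and not listed for round spermatids. It overlapped an assembled transcript, a transcript model of the authors' joint table that carries no gene symbol. An L2b of 85 bp at chr4:115456650-115456734, 856 bp from Atpaf1, an assembly factor of the mitochondrial ATP synthase, had 23948 FPKM in MVH IP and 470 FPKM in round spermatids. It too overlapped an assembled transcript, while Atpaf1 itself was at 118 FPKM in the MVH IP gene table. An L2b of 44 bp at chr8:108009360-108009403 was at 3672 FPKM in round spermatids and not listed for MVH IP. It lay inside the span of Zdhhc1, a palmitoyltransferase gene, and was the only one of the 39 loci named by rule that lay inside a gene span.

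Among the 437 members listed in both tables, 336 were at least 2-fold higher in MVH IP than in round spermatids and 16 at least 2-fold lower, on the scale of FPKM + 1. Of all 12057 shared repeat elements, 71.7% were called higher and 7.32% lower, against 76.9% and 3.66% of the members. The median log2 ratio of the members was 2.74 (quartiles 1.11 and 4.29, range -3.60 to 9.02), and that of all shared elements was 2.43 (quartiles 0.77 and 4.02). The tables were scaled apart from each other, and the shift was general: 2905 of the 3855 shared genes were also higher and 21 lower, with a median log2 ratio of 1.85. Relative to the median of all shared elements, 173 members were higher and 125 lower, against backgrounds of 33.5% and 34.2%, and the median was 0.31. Relative to the median of shared genes, 214 were higher and 93 lower, against backgrounds of 43.1% and 26.2%, and the median was 0.89. The values hold no replicates, so none of these differences has an error or a test.

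**Figure D2:**
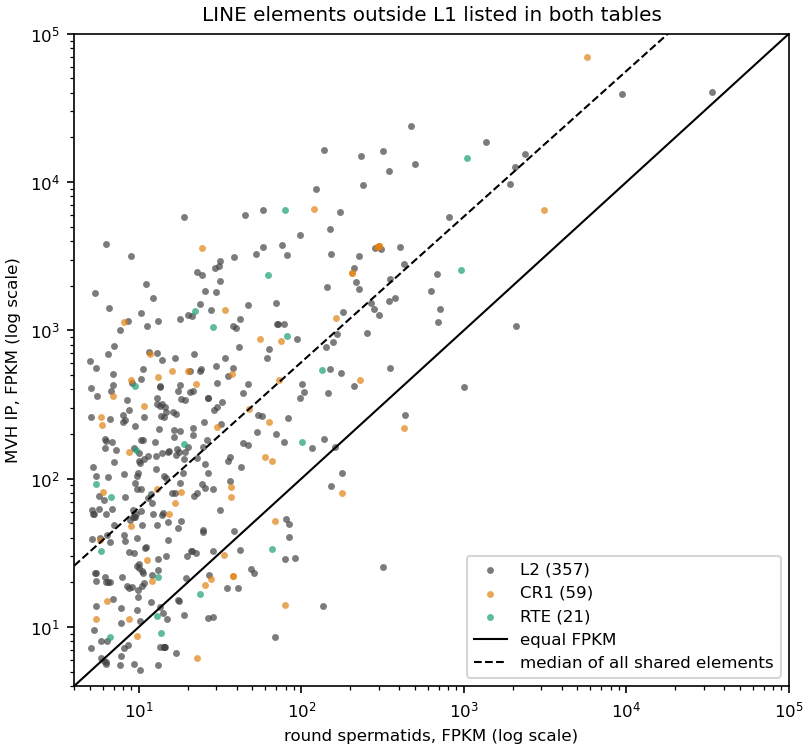
FPKM in MVH IP (vertical, log scale) against FPKM in round spermatids (horizontal, log scale) for the 437 LINE elements outside L1 listed in both tables, coloured by family. The solid line marks equal FPKM and the dashed line the median ratio of all shared repeat elements, a log2 ratio of 2.43; points lie on both sides of the dashed line.

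The families differed little in this ratio. The median log2 ratio was 2.78 over 357 L2 loci, of which 278 were higher and 13 lower. It was 2.62 over 59 CR1 loci, with 44 higher and 3 lower, and 3.10 over 21 RTE loci, with 14 higher and none lower. The medians of the main repeats ran between 2.48 for L2c and 3.10 for L4. MIR had a median of 3.18, DNA transposons 3.02 and L1 1.92, so the old LINEs lay between L1 and the other old classes. L3b had 53 loci in MVH IP and 27 in round spermatids but only 1 in both, which is 1.89% and 3.70% of them. For L3 the 58 shared loci were 17.7% and 27.8%, and for all repeat elements the shares were 12.8% and 25.5%. L3b also had a lower median in MVH IP, 18.6 FPKM against 38.2 FPKM for L3.

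The shared loci with the highest ratios had high values in MVH IP and values near the floor in round spermatids, as a choice by this ratio favours. An L2c of 69 bp at chr15:69874375-69874443 was at 3800 FPKM in MVH IP and 6.31 FPKM in round spermatids, a log2 ratio of 9.02. An L2 of 95 bp at chr9:85035404-85035498 had 3158 FPKM in MVH IP and 9.00 FPKM in round spermatids. An L2c of 86 bp at chr14:8834987-8835072, 344 bp from Abhd6, a lipid hydrolase gene, had 5950 FPKM in MVH IP and 45.2 FPKM in round spermatids, and it overlapped an assembled transcript. Across the 10 loci of highest ratio, MVH IP ran between 1139 and 5950 FPKM and round spermatids between 5.36 and 45.2 FPKM, with 8 of the 10 under 20 FPKM in round spermatids. The 10 loci of lowest ratio ran between 6.19 and 416 FPKM in MVH IP and between 17.0 and 1006 FPKM in round spermatids. The lowest was an L2b of 64 bp at chr14:34841395-34841458, with 25.5 FPKM in MVH IP and 320 FPKM in round spermatids, a log2 ratio of -3.60. An L2b of 564 bp at chr1:121100471-121101034, 150 kb from Gli2, a transcription factor of Hedgehog signalling, had 8.49 FPKM in MVH IP and 69.0 FPKM in round spermatids. The longest shared members also differed widely in ratio: an L3 of 2335 bp at chr3:90867509-90869843 had 242 FPKM in MVH IP and 62.9 FPKM in round spermatids, and an L2 of 1914 bp at chr3:146051827-146053740 had 412 FPKM in MVH IP and 13.6 FPKM in round spermatids.

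Several L3 copies on the unplaced sequence of the Y chromosome had the same values. All 11 members listed there were L3, with 8 in MVH IP, 11 in round spermatids and 8 in both, which is 13.8% of the 58 shared L3 loci. Of these, 3 copies of 78 bp had exactly 3705 FPKM in MVH IP and 299 FPKM in round spermatids, and the fourth of that length had 3673 FPKM in MVH IP and 291 FPKM in round spermatids. A pair of 89 bp had 2453 FPKM in MVH IP and 205 FPKM in round spermatids, and a pair of 101 bp had 22.1 FPKM in MVH IP and 38.2 FPKM in round spermatids. Copies with equal values in both tables may share reads, so their levels are uncertain and they do not count as separate measurements. Without the unplaced Y sequence, the median log2 ratio was 2.57 for the other 50 shared L3 loci and 2.70 for the other 429 shared members.

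Most members of one table were absent from the other. The 437 shared loci were 16.0% of the MVH IP members and 24.4% of the round spermatid members, against 12.8% and 25.5% for all repeat elements. The 2298 loci of MVH IP alone had a median of 23.7 FPKM and the 1357 of round spermatids alone a median of 13.4 FPKM, whereas the shared loci had medians of 177 FPKM in MVH IP and 18.0 FPKM in round spermatids. Overlap thus went with level. Of the MVH IP members between 5 and 10 FPKM, 4.51% (26 of 577) were listed for round spermatids, and of those at 1000 FPKM or more, 71.2% (99 of 139) were. In round spermatids the shares listed for MVH IP were 19.0% between 5 and 10 FPKM and 91.7% (11 of 12) at 1000 FPKM or more. All repeat elements followed the same course, at 3.23% and 77.9% in MVH IP and 19.7% and 79.4% in round spermatids.

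**Figure D3:**
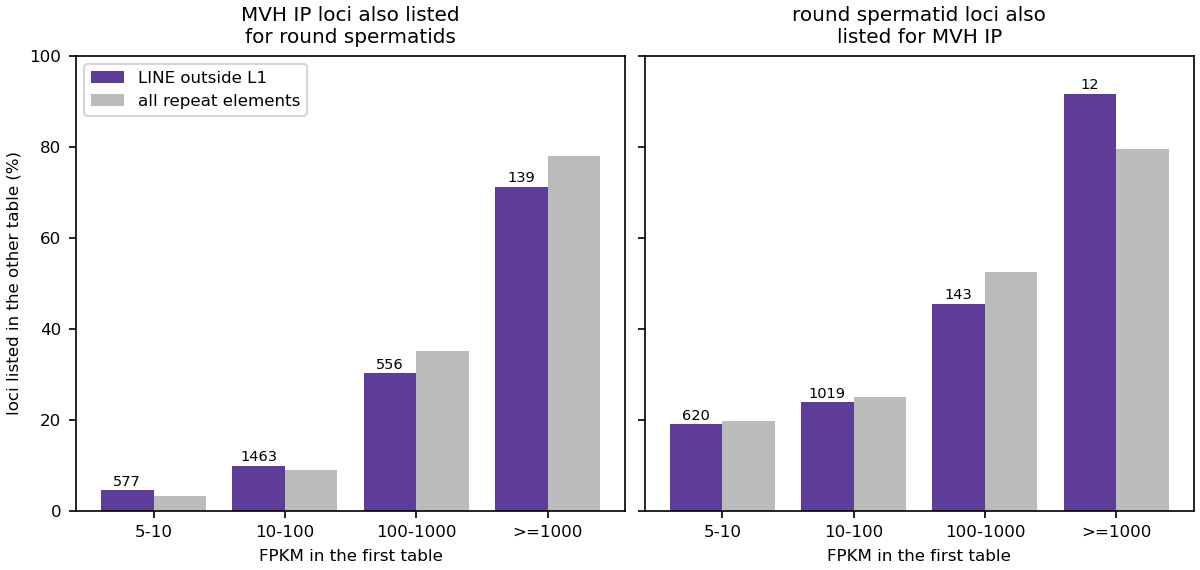
Share of loci listed in the other table (percent) by FPKM in the first table, for MVH IP loci (left) and round spermatid loci (right), LINE elements outside L1 in purple and all repeat elements in grey. Numbers above the purple bars are loci; the share is higher in each higher bin, ending at 71.2% in MVH IP and 91.7% in round spermatids.

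Short elements had the highest values. The median length was 123 bp in MVH IP and 99 bp in round spermatids, against 166 bp and 120 bp for all repeat elements. Across members, FPKM and length had a Spearman rho of -0.41 in MVH IP (2735 loci) and -0.42 in round spermatids (1794 loci), a description over loci that share libraries and a scaling by length. The median was 206 FPKM in MVH IP and 46.0 FPKM in round spermatids for members of at most 50 bp, and 14.1 FPKM and 7.30 FPKM for members over 200 and up to 400 bp. Members over 400 bp stood higher again, at 15.7 FPKM in MVH IP and 13.6 FPKM in round spermatids. The log2 ratio had a rho of -0.05 with length over the 437 shared members, so length moved with the levels and hardly with the ratio. The FPKM of shared members in both tables had a rho of 0.52, against 0.50 for all shared elements.

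Many values recurred exactly among elements of one length. Of the members, 839 of 2735 (30.7%) in MVH IP and 941 of 1794 (52.5%) in round spermatids had a value that another element of their length also had, against 25.9% and 37.6% of all repeat elements. In MVH IP, over elements of 45 to 90 bp of every class, the lowest value recurred at all 46 lengths and was lower with each added base, at 47.6 FPKM for 45 bp, 18.8 FPKM for 60 bp and 5.15 FPKM for 90 bp. It was 9.25 times lower at 90 bp than at 45 bp, a steeper fall than division by the element's length alone would give, so short elements stand higher than on a plain scale per length. In round spermatids the most frequent value was 21.6 FPKM at 75 bp and 6.25 FPKM at 110 bp, lower with each added base, and values 1.57 and 1.90 times as high recurred at all 36 lengths. There too the fall was steeper than length, 3.45 times over a length 1.47 times as long. The sources used here do not tie a step to a library.

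Many members lay close to these steps, about as often as other elements. Of 686 members of 45 to 90 bp in MVH IP, 33 (4.81%) were at the lowest value of their length, 242 (35.3%) under 3 times it and 408 (59.5%) under 10 times it, while 67 (9.77%) were at 100 times it or more. Among all 10560 elements of these lengths, 6.22% were at the lowest value, 31.7% under 3 times, 57.1% under 10 times and 10.7% at 100 times or more. The median multiple was 25.0 for members also listed for round spermatids and 4.73 for members of MVH IP alone, against 28.4 and 4.54 for all elements. Of the 242 members under 3 times the lowest value, 27 were listed for round spermatids, and of the 67 at 100 times or more, 42 were. These are 11.2% and 62.7%, against 12.5% and 76.2% of all elements. In round spermatids 244 of 683 members of 75 to 110 bp (35.7%) were at 1 of these 3 recurring values, and 30 of those 244 (12.3%) were listed for MVH IP. For all elements the shares were 34.4% and 9.25%. The 5 loci of lowest ratio that fell in the range of 45 to 90 bp were at 1 to 2.18 times the lowest MVH IP value of their length, and the loci of highest ratio in that range at 51.5 to 998 times. These loci were chosen by a ratio that uses the same MVH IP value, so the choice itself favours this difference.

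**Figure D4:**
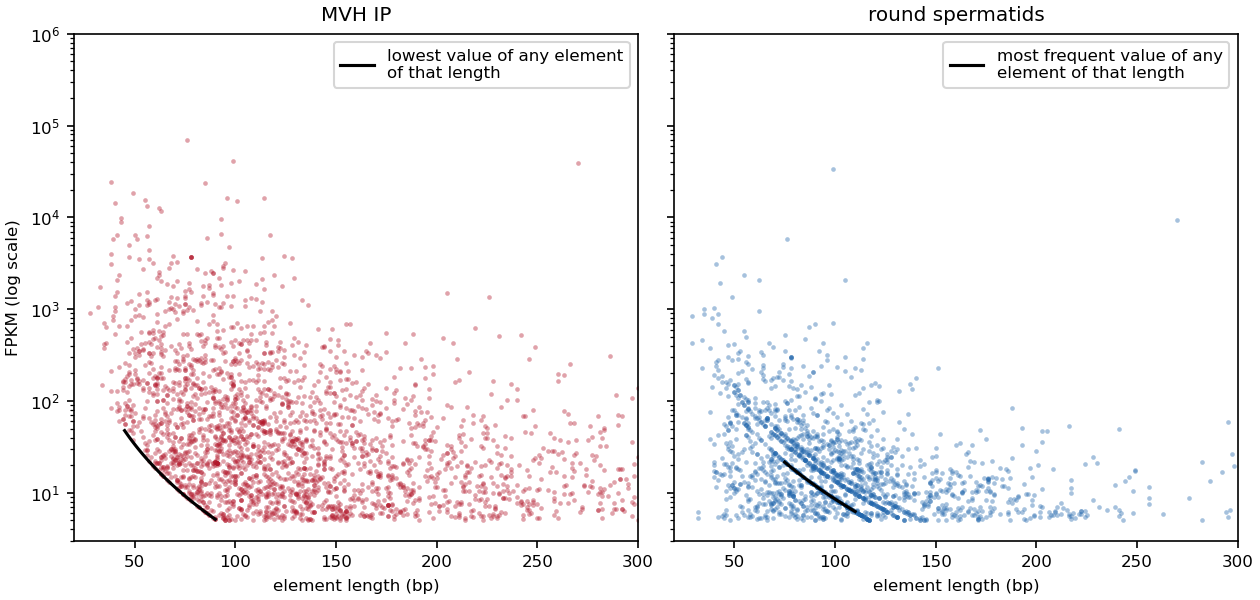
FPKM (log scale) against element length (bp) for LINE elements outside L1 in MVH IP (left) and round spermatids (right). The black line joins the lowest value of any repeat element of each length from 45 to 90 bp in MVH IP, and the most frequent value from 75 to 110 bp in round spermatids; bands of points run along these lines.

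Few listed members lay in genes. The joint table has 21905 genes, whose spans cover 941.7 Mb, yet 30 members of MVH IP (1.10%) and 39 of round spermatids (2.17%) overlapped one. These spans, chosen after seeing the data, include genes down to 0 FPKM; in the planned count, over genes listed for the same sample, 4 members of MVH IP (0.146%) and 9 of round spermatids (0.502%) lay in a gene. By the wider spans, the share over both tables was 1.49% of members and 1.40% of all repeat elements, so the low share was general to the listed elements. A further 60 members of MVH IP (2.19%) and 68 of round spermatids (3.79%) lay within 1 kb of a gene, whereas 80.3% and 73.2% lay over 10 kb away. All repeat elements were at 2.88% in MVH IP and 4.78% in round spermatids within 1 kb, and at 76.5% and 69.6% over 10 kb. The median distance of members was 59.2 kb in MVH IP and 42.5 kb in round spermatids, against 46.3 kb and 31.4 kb for all repeat elements. The lysate table differed in this respect: 556 of its 771 LINE elements outside L1 (72.1%) lay in a gene span, as did 60.7% of all its elements. Of its 215 members outside genes, 60 were listed for MVH IP or round spermatids, 43 for MVH IP and 51 for round spermatids. None of its 556 members in genes was listed for either. The 60 were thus all its shared members, 7.78% of its members, against 7.54% for all its elements. Whether the listing for MVH IP and round spermatids left out loci in genes was not tested. The gene shares and distances therefore describe the listed loci only.

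**Figure D5:**
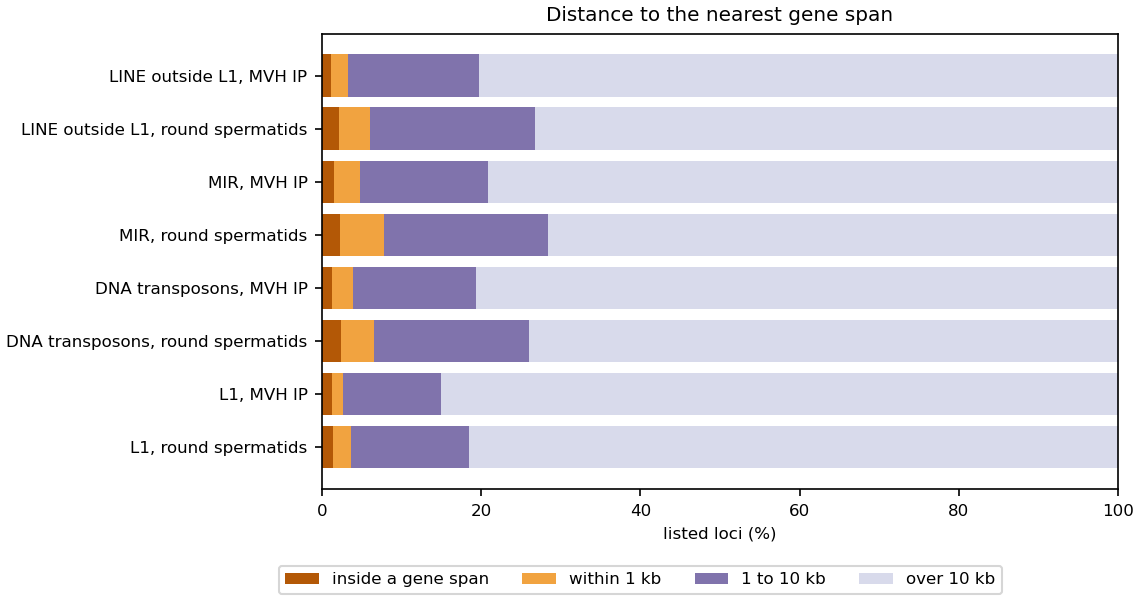
Share of listed loci (percent) inside a gene span, within 1 kb, 1 to 10 kb and over 10 kb from one, for LINE elements outside L1 and 3 other groups of repeats, with MVH IP above round spermatids. For LINE elements outside L1 the loci over 10 kb away make up 80.3% in MVH IP and 73.2% in round spermatids.

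Members that lay within 1 kb of a gene listed for the same sample were more often upstream than downstream of it. In MVH IP 26 of 32 were upstream and in round spermatids 30 of 46. MIR showed the same side, with 44 of 68 in MVH IP and 62 of 87 in round spermatids, while L1 had 56 of 121 and 48 of 105. DNA transposons had 27 of 50 in MVH IP and 31 of 46 in round spermatids. Of all repeat elements at this distance 49.9% in MVH IP and 50.3% in round spermatids were upstream. Between 1 and 10 kb, 122 of 246 members (49.6%) were upstream in MVH IP and 141 of 239 (59.0%) in round spermatids. All repeat elements at 1 to 10 kb were at 56.2% in MVH IP and 58.8% in round spermatids. Within 1 kb, the upstream members had a median of 141 FPKM in MVH IP and 26.7 FPKM in round spermatids. The downstream ones, 6 and 16 loci, had 103 FPKM and 18.0 FPKM. Between 1 and 10 kb the order turned in MVH IP, at 28.7 FPKM upstream and 41.1 FPKM downstream. In round spermatids it was 16.8 FPKM upstream and 12.6 FPKM downstream. Members over 10 kb from a listed gene had 28.4 FPKM in MVH IP and 14.1 FPKM in round spermatids. Across the 31 pairs of a member and a gene at most 1 kb apart in MVH IP, the FPKM of member and gene had a rho of 0.30, and across the 35 pairs in round spermatids 0.09, over pairs that share libraries.

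Transcript models without a gene symbol overlapped more of the listed members than gene spans did. Whether the listing left out loci in genes was not tested, so the comparison holds for listed loci only. In MVH IP 67 members (2.45%) and in round spermatids 132 (7.36%) overlapped an assembled transcript, and of the shared loci 43 (9.84%) did. All repeat elements were at 1.41% in MVH IP, 4.06% in round spermatids and 4.88% of the shared loci, and shared DNA transposons at 9.82%. Those members had medians of 233 FPKM in MVH IP and 26.8 FPKM in round spermatids, against 28.0 FPKM and 13.9 FPKM for the members outside. The 146 assembled transcripts that held a member had medians of 34.5 FPKM in pellet2, 24.1 FPKM in pellet1, 26.4 FPKM in supernatant and 23.4 FPKM in lysate, the fractions of the purification. All 4922 assembled transcripts had medians of 44.7 FPKM in pellet2, 36.3 FPKM in pellet1, 40.6 FPKM in supernatant and 37.0 FPKM in lysate, so those with an old LINE had the lower median in each fraction. No member overlapped a piRNA cluster of the joint table, a genomic stretch that gives rise to piRNAs, and of all listed repeat loci 1 did.

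Some genes that silence transposons were listed in both samples. Of 30 such genes, 27 of them in the joint table, 16 were listed for MVH IP and 13 for round spermatids. Of the 9 in both tables, 7 were at least 2-fold higher in MVH IP and none lower, with a median log2 ratio of 2.62, while 2905 of all 3855 shared genes were higher with a median of 1.85. The labelled cells were checked against markers. Of 10 round spermatid markers, 9 were listed for MVH IP and 10 for round spermatids, with summed levels of 28622 FPKM and 7705 FPKM. The 9 in both had a median log2 ratio of 2.02. Of 6 chromatoid body genes, 5 were listed for each, at 1496 FPKM in sum in MVH IP and 673 FPKM in round spermatids. Of these 5, 3 were at least 2-fold higher in MVH IP and none lower. The median log2 ratio of the 5 was 1.06, below the 1.85 of all shared genes. Tdrd7 alone was at 878 FPKM in MVH IP, whereas Ddx25 had 54.9 FPKM in MVH IP and 82.2 FPKM in round spermatids. Of 7 spermatocyte markers, 6 of them in the joint table, 4 were listed for each but only 3 for both. Their sums, partly over different genes, were 306 FPKM in MVH IP and 42.5 FPKM in round spermatids. The 3 in both had a median log2 ratio of 3.07. Of 7 spermatogonium markers, 3 were listed for MVH IP and 0 for round spermatids. Markers of somatic cells were listed for MVH IP and not for round spermatids: 4 of 9 Sertoli cell markers (188 FPKM in sum) and 5 of 6 Leydig cell markers (116 FPKM in sum), with 0 of 5 macrophage markers in either. Shared genes were higher in MVH IP by a median log2 ratio of 1.85, so a gene low in MVH IP can go unlisted for round spermatids through scale alone. Whether the absence of these markers, and of the spermatogonium markers, from the round spermatid table went beyond this shift was not tested. The part of somatic cells in the values of the old LINEs was not tested.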

How the data were processed

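Reads were handled with TopHat and Cuffdiff on mm9, per the submitters' processing notes, which name no versions. The element, gene and joint tables hold deposited FPKM values, 1 per condition, so single libraries cannot be told apart and depth is unknown. Deposited values of the lysate element table were kept as a score and used for listing only. Element starts count from 0 for MVH IP and round spermatids and were raised by 1. Duplicate entries were reduced to the highest value. For loci in both tables a log2 ratio of (FPKM + 1) was computed and called at 2-fold; it understates the change of low loci. Recurring steps were matched within 0.1%. Distances were taken to gene spans of the joint table with Python 3.11.15, pandas 2.3.3, numpy 2.4.6 and scipy 1.17.1. The 2-fold calls, the distances and the test of lying inside a span were checked on simulated data, and the recurring steps were not. The design would have used limma on library columns; pooled values allow no test. Named loci were the 10 of highest FPKM in each table, the 10 of highest and of lowest ratio, the highest of each family and the longest 3 in both. The members and lists were chosen with earlier results of these data known. MVH IP values of the joint table, and 1 small RNA column, were not used here.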

Additional observations from a re-analysis of the deposited data

How the results depend on the processing

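Of 49 values recomputed under alternatives, 36 moved little and 13 moved. Only the median log2 ratio could reverse direction, and it did not. Keeping the lowest duplicate value, or 1 locus per overlapping listed gene, left the calls and median of the 437 shared members unchanged, so these add little to the tally. Centring moved the calls most: 173 higher, 125 lower and a median log2 ratio of 0.31 when centred on all shared elements, and 214, 93 and 0.89 when centred on shared genes. With elements of at least 100 bp, 180 of 232 shared members were higher and 6 lower. That set was smaller than the 437 of the main result, and its median log2 ratio was 2.68, against 2.74. At that length 1802 loci were listed for MVH IP and 892 for round spermatids. At 10 FPKM or more, 1174 loci were listed for round spermatids. The share inside a gene of the sample's own gene table was 0.146% for MVH IP and 0.502% for round spermatids, or 1.10% and 2.17% with the gene spans of the joint table, an alternative chosen after seeing the data, as was leaving out loci in an assembled transcript or on the unplaced Y sequence. No paired analysis was possible because each condition has 1 deposited value; for the same reason no replicate could be left out. Depth is unknown, and the floor of 5 FPKM limits which loci can be compared.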
